A study of Arabidopsis thaliana with 2 samples.

Results

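RD29A (AT5G52310), ERD6 (AT1G08930), MKK2 (AT4G29810) and ALDH10A9 (AT3G48170) are genes of the Arabidopsis thaliana response to drought, cold and salt that lay under peaks of the transcription factor ATAF1. They were selected on the overlap column of the deposited peak list, which names each of them by symbol. Each of the 4 genes had 1 peak, so that they account for 4 of the 439 peaks in the list. The presence of a peak chose them, and the values of these peaks are given as a description, with no test. Rosettes of plants with 35S:ATAF1-HA, which over-express HA-tagged ATAF1 from the viral 35S promoter, were used for chromatin immunoprecipitation against HA and sequencing. Untagged wild-type Col-0 plants, of the same ecotype as the tagged plants, were treated the same way. All plants were 5 weeks old and had grown on soil with 8 h of light per day at 21 °C, and no stress treatment is given in the labels. There was 1 library per genotype with 10 ng of precipitated DNA, so that nothing could be compared across replicates. Reads, false discovery rate (FDR), strand imbalance and p-value per peak are the authors' own values, given once per peak without naming a library, and the depth of either library is unknown.

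ATAF1 is a NAC-domain factor whose gene is induced by drought and abscisic acid (ABA). Plants short of water, chilled or exposed to salt signal through ABA and through DREB/CBF factors, and RD29A is a classical target of both. Upstream, MAP kinase cascades carry the cold and salt signal. Downstream effectors include hydrophilic proteins, sugar carriers and enzymes that make compatible solutes or remove reactive aldehydes. The peak genes stand at different points of this response. MKK2 belongs to the signalling cascade, RD29A to the hydrophilic proteins, ERD6 to the sugar carriers and ALDH10A9 to the enzymes.

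MKK2, a MAP kinase kinase that acts below MEKK1 and above MPK4 and MPK6 in cold and salt signalling, had a peak of 203 reads at chromosome 4, 14593999 to 14594043 (TAIR 9, as are all positions here). The region was 44 bp long and held 100 forward and 103 reverse reads, with an FDR of 0.172%. In this peak the strands were close to even. The forward share was 49.3% (exact Clopper-Pearson 95% interval 42.2 to 56.4), and 22 of the 439 peaks had a strand imbalance at or below its 0.0148 (the gap between forward and reverse counts divided by the total).

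RD29A, also named LTI78 and COR78, encodes a hydrophilic protein induced by drought, cold, salt and ABA. Its peak lay at chromosome 5, 21242047 to 21242071, and was 24 bp long. It held 140 reads, 77 forward and 63 reverse, with an FDR of 1.32%. These were the fewest reads among the 4 genes. The forward share was 55% (exact 95% interval 46.4 to 63.4).

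ERD6 encodes a putative sugar transporter of the monosaccharide transporter family and was isolated as a gene of the early response to dehydration. Its peak lay at chromosome 1, 2874960 to 2874987, over 27 bp. The list gives it 191 reads and an FDR of 1.59%. Of these reads 55 were forward and 136 reverse, 2.47 times as many on the reverse strand. The peak was uneven between strands. Its strand imbalance of 0.424 ranked 27 from the highest among the 439 peaks, whose median was 0.165 and whose maximum was 0.495. Of the 27 peaks at least as uneven as this one, 15 had more reverse than forward reads.

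ALDH10A9 encodes an aldehyde dehydrogenase of the betaine aldehyde dehydrogenase family, enzymes that oxidise aminoaldehydes and, in species that accumulate glycine betaine, make this solute. Its peak lay at chromosome 3, 17787914 to 17787945, over 31 bp. It held 434 reads, 210 forward and 224 reverse, with an FDR of 0.000285%. This was the most heavily covered of the 4 peaks, with 3.10 times the reads of the RD29A peak. The forward share was 48.4% (exact 95% interval 43.6 to 53.2).

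**Figure D1:**
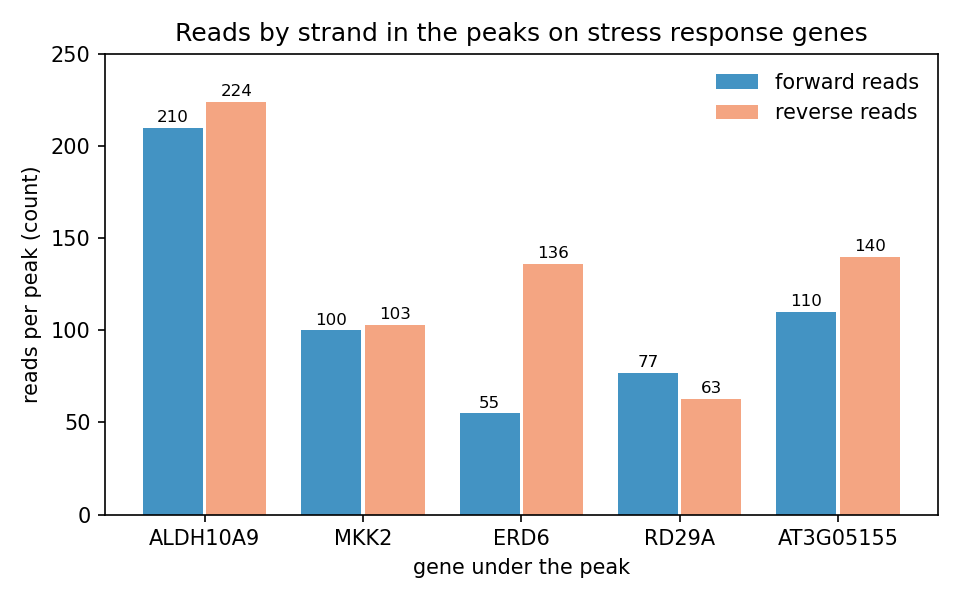
Forward and reverse reads (counts per peak) in the peaks on ALDH10A9, MKK2, ERD6 and RD29A and on AT3G05155, an ERD6-like transporter gene. The strands are close to even on ALDH10A9 (210 and 224) and MKK2 (100 and 103) and far apart on ERD6 (55 and 136).

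By total reads the peaks ran in the order ALDH10A9, MKK2, ERD6 and RD29A. Counting error alone gave ALDH10A9 an exact Poisson 95% interval of 394 to 477 reads, above and apart from the others. The interval was 176 to 233 for MKK2 and 165 to 220 for ERD6, so that these neighbours could not be told apart. That of RD29A, 118 to 165.2, touched that of ERD6, whose lower bound was 164.9. Intervals cover counting error only and say nothing of variation between plants, and reads from amplified libraries are not independent molecules.

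In the whole list the ALDH10A9 peak ranked 29 by reads and 23 by FDR. The MKK2 peak ranked 238 by reads and 137 by FDR, the ERD6 peak 255 and 297, and the RD29A peak 336 and 283. ALDH10A9 was thus the 1 gene of the 4 above the list's median of 215 reads, and the median over the 4 peaks was 197. Over all 439 peaks the quartiles were 141.5 and 281 reads, so RD29A fell just under the lower quartile and ALDH10A9 well above the upper one. An FDR under 1% was found in 2 of the 4 peaks, MKK2 and ALDH10A9, beside 51.5% of all peaks. At that limit 0.492% of nuclear protein-coding genes were named by a peak. The authors' p-value was 0 in each of the 4, as in 373 of 439 (85%), and does not separate them. The 4 regions were 24 to 44 bp long, beside a median of 40 bp in the list. That of MKK2, the longest, was above this median and the others were below it.

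Length changed the standing of the weaker peaks. Per bp of peak, ALDH10A9 had 14 reads, ERD6 7.07, RD29A 5.83 and MKK2 4.61, which puts MKK2 last. The regions are much shorter than the sequenced DNA fragments of a ChIP library usually are, so that reads per bp is a ratio of 2 deposited columns and not a coverage.

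Just above and just below RD29A in reads, peaks with an equal total mostly had an equal FDR. Even so, the 28 other peaks within 2 reads of RD29A had FDRs from 1.19% to 4.85%. The peaks nearest in reads to the other genes were fewer and spread in FDR, and no peak lay within 2 reads of ALDH10A9. All 9 peaks with 139 reads had an FDR of 1.19%, the 5 other peaks with 140 reads had the 1.32% of RD29A, and 5 of 6 peaks with 141 reads had 1.24%. ALDH10A9 (434 reads) stood between the ABC transporter gene ABCA6, with 441 reads and an FDR of 0.000210%, and the transposable element gene AT5G32624, with 430 reads and an FDR of 0.0905%. MKK2 (203 reads, FDR 0.172%) stood between AT5G24390, with 204 reads and an FDR of 4.99%, and PATL1 (AT1G72150), with 202 reads and an FDR of 1.19%. A peak on chromosome 2 from position 3463561, which names no gene, had the same 203 reads and the same FDR as MKK2. ERD6 (191 reads, FDR 1.59%) shared its total with AT5G23350, which had an FDR of 2.40%. Just above it in reads stood MGT2 (AT1G16010), with 193 reads and an FDR of 4.85%. Just below it, PLDBETA1 (AT2G42010) and PUB17 (AT1G29340) both had 190 reads, at FDRs of 0.403% and 3.05%. A total near that of MKK2 or of ERD6 was therefore no guide to the FDR.

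FDR values repeated, and the repeats set ERD6 apart from RD29A and MKK2. RD29A shared its FDR of 1.32% with 7 other peaks. Of these, 5 had the same total of 140 reads, and the other 2 had 140 reads on 1 strand. All 6 peaks of the list with 140 reads carried this FDR, and both peaks with 203 reads carried that of MKK2. ERD6 shared its FDR of 1.59% with 12 other peaks, of which 8 had a total of 136 reads. The total on ERD6 was 191, and 136 is its reverse count. A further 3 peaks with this FDR likewise had 136 reads on 1 strand, and 1 had 136 in neither column. Of the 12, 8 had fewer reads in total than ERD6 and 4 had more, up to 267. All 8 peaks with 136 reads carried the FDR of 1.59%. Over the list, 406 peaks shared their FDR with another peak. In 217 of them the total was the lowest of the peaks with that FDR, in 98 that number stood on 1 strand, and in 91 in neither column. At least 1 peak for each shared FDR is among the 217 by definition. The sources used here do not give how the FDR was computed.

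**Figure D2:**
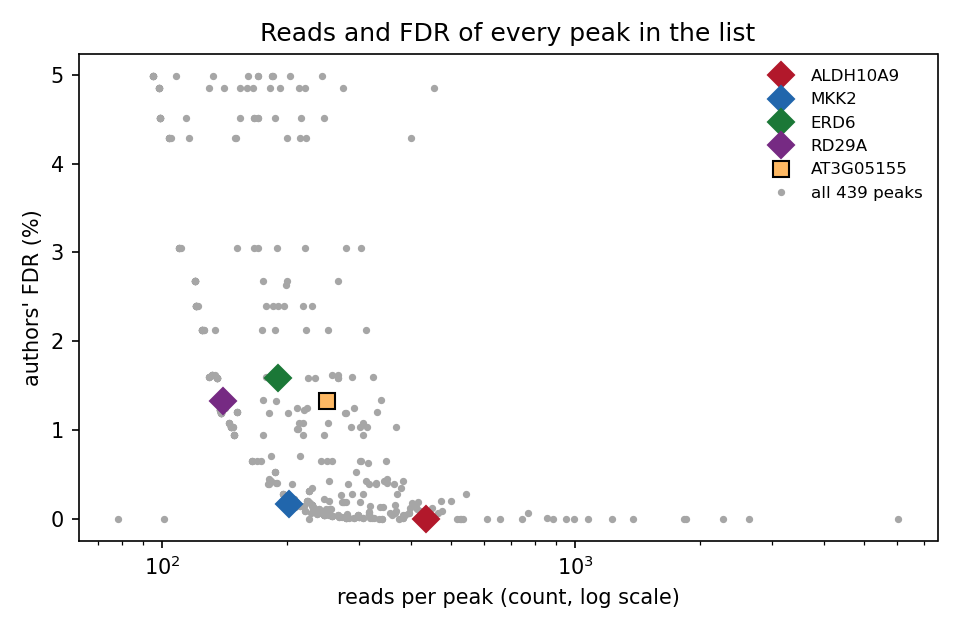
Reads per peak (log scale) against the authors' FDR in percent for all 439 peaks (grey), with ALDH10A9, MKK2, ERD6 and RD29A as diamonds and AT3G05155 as a square. MKK2 (203 reads, 0.172%) and RD29A (140 reads, 1.32%) lie near the lower left edge of the cloud. The 9 peaks with 139 reads (1.19%) lie just below and to the left of RD29A. ERD6 (191 reads, 1.59%) lies further to the right of that edge.

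Strand balance differed among the 4 genes. On ERD6 forward reads made up 28.8% (exact 95% interval 22.5 to 35.8), and this interval excluded an even 50%. The intervals of RD29A, MKK2 and ALDH10A9 held 50%. An interval that excluded 50% was common in the list, in 247 of the 439 peaks (56.3%), so that 1 of 4 does not stand above the list. Forward shares over all peaks ran from 25.5% to 74.7% with a median of 48.7% and quartiles at 40.1% and 56.5%. ERD6 stood near the low end of that range and the other 3 genes between the quartiles.

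**Figure D3:**
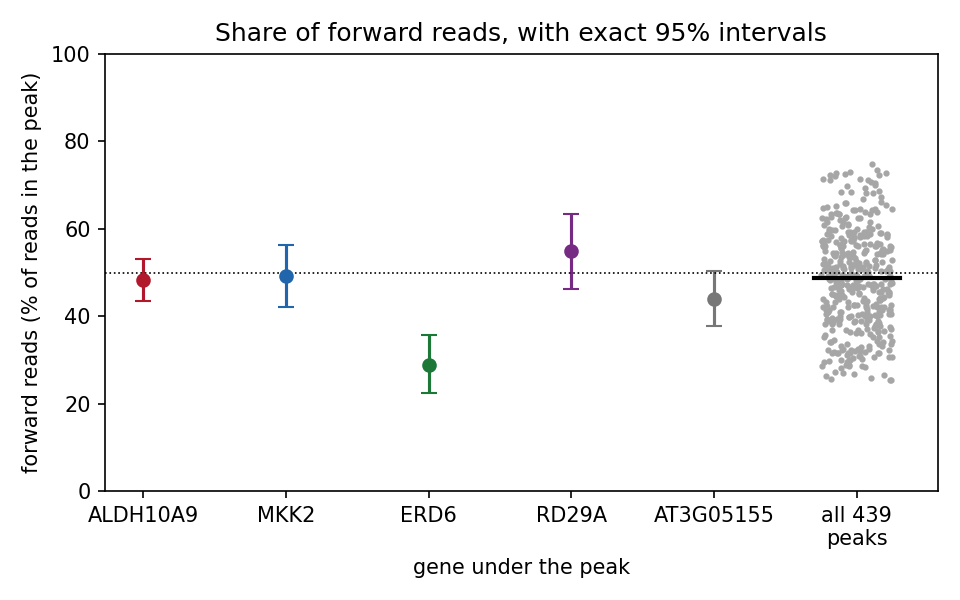
Forward reads as a percent of all reads in the peak, with exact 95% intervals as bars, for ALDH10A9, MKK2, ERD6, RD29A and AT3G05155, and for all 439 peaks as grey points with their median as a black line. The interval of ERD6 (22.5 to 35.8%) lies under the dotted line at 50%, and those of the other 4 genes cross it.

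The gap to the nearest peak was short at ALDH10A9 and RD29A, near the middle of the list at ERD6 and long at MKK2. The nearest peak to that of ALDH10A9 lay 5614 bp away on APC8 (AT3G48150), which encodes a subunit of the anaphase-promoting complex. The APC8 peak had 120 reads, 68 forward and 52 reverse, and an FDR of 2.68%. Between both genes, in the order of the RefSeq table, stands DEL1 (AT3G48160), an atypical E2F factor gene that restrains endoreduplication, which no peak named. On the other side of ALDH10A9 the next peak was 961313 bp away.

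RD29A had its nearest peak 14064 bp away on EXO70A3 (AT5G52350), an exocyst subunit gene, with 136 reads and an FDR of 1.59%. The list's 3' gene column names CYP96A4 (AT5G52320), a cytochrome P450 gene, at 2906 bp. Its 5' gene column names LTI78, which is RD29A itself, and so gives no neighbour on that side. RD29B (AT5G52300, listed by RefSeq as LTI65), the ABA-responsive relative that stands directly beside RD29A in gene order, was not named by a peak. The median gap from a peak to its nearest neighbour was 81510 bp over the list, and 52 and 69 of the 439 peaks had a gap as small as that of ALDH10A9 or of RD29A. For ERD6 and MKK2 these counts were 248 and 359.

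For ERD6 the nearest peak, on the defence kinase gene EDR1 (AT1G08720), was 98404 bp away and had 316 reads. The next gene in order, ESL1 (AT1G08920), is an ERD6-like transporter gene and was not named by a peak. For MKK2 the nearest peak was 224552 bp away, on AT4G29140, with 211 reads. Among the 10 genes on each side of MKK2, and likewise of ERD6, 0 were named by a peak, while 1 of 20 was named beside ALDH10A9 (APC8) and beside RD29A (EXO70A3). At the 1.05% of nuclear protein-coding genes that peaks named, 0.210 of 20 would be named, so that 0 and 1 do not set these genes apart. The 20 were taken from RefSeq loci of any type, so that 0.210 is a rough guide. The neighbour columns are of little use for ERD6, MKK2 and ALDH10A9, since the nearest gene they give was 4730711, 656491 and 193782 bp away. Such far entries were found in 316 peaks (over 20000 bp).

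**Figure D4:**
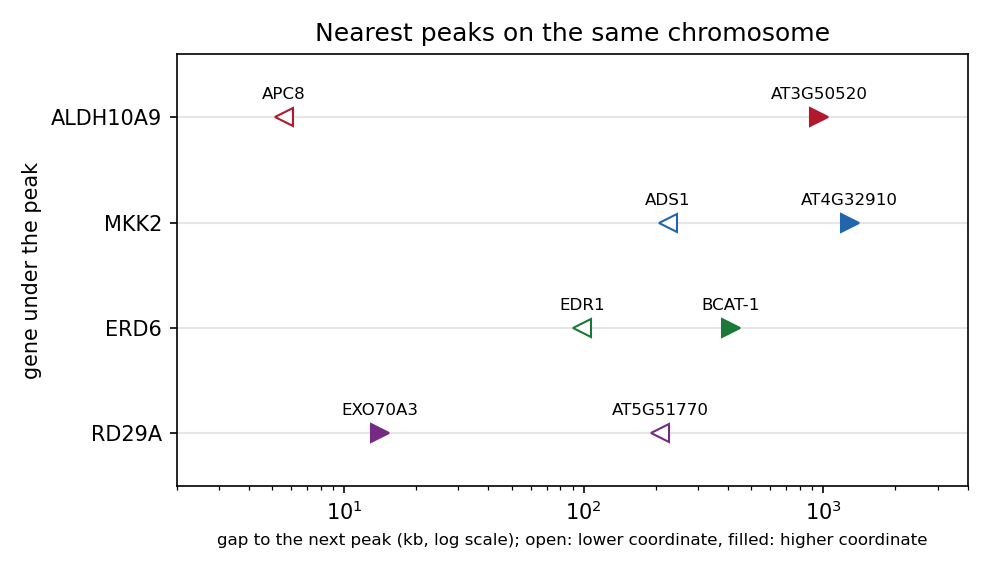
Gap in kb (log scale) from the peaks on ALDH10A9, MKK2, ERD6 and RD29A to the next peak at lower (open) and higher (filled) coordinates, labelled with the gene under that next peak. ALDH10A9 and RD29A each have a neighbour on 1 side, APC8 at 5614 bp and EXO70A3 at 14064 bp, while the nearest peaks to ERD6 and MKK2 are 98404 and 224552 bp away.

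Other genes of the same pathways were followed in 8 lists with 89 distinct genes, all matched to the RefSeq table. Of all nuclear protein-coding genes, 288 of 27444 (1.05%) were named in the overlap column. Apart from the 4 chosen genes, 1 of 85 list genes was named (1.18%, exact 95% interval 0.0298 to 6.38), a share near that background. The 1 gene was AT3G05155, an ERD6-like transporter gene.

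Of 18 drought and cold effectors, RD29A, chosen for its peak, was the 1 named (0.189 at the background share). The others include RD29B, COR15A, COR47, KIN1, RAB18, RD22 and the proline synthesis gene P5CS1. None of 9 DREB and cold regulators was named, among them CBF1, CBF2, CBF3, DREB2A and ICE1, which act on the drought-responsive element of genes such as RD29A or upstream of it. An exact 95% interval allows a share of up to 33.6% in this list. None of 5 genes of sodium transport and the SOS pathway was named (upper limit 52.2%). These lists are short, and a share several times the background would still have been compatible with 0.

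In the signalling list, MKK2 was the 1 gene named of 6 in the MAP kinase cascade of cold and salt (0.0630 at the background share). MKK2 was chosen for its peak, so that this count was fixed beforehand. Its upstream kinase MEKK1 and its targets MPK4 and MPK6 were not named, nor was MPK3. MKK1 (AT4G26070), the closest relative of MKK2, was not named either, and MKK2 was the 1 of 10 MAP kinase kinases with a peak (0.105 at the background share). Of 14 aldehyde dehydrogenase genes, ALDH10A9, likewise chosen for its peak, was the 1 named (0.147 at the background share). ALDH10A8 (AT1G74920), the other member of its family, was not, and neither was the stress-induced ALDH7B4.

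Of 13 ERD genes, ERD6, chosen for its peak, was the 1 named (0.136 at the background share). ERD1, which encodes a chloroplast Clp protease subunit, and the dehydrin genes ERD10 and ERD14 were not. In the list of 19 ERD6-like sugar transporters, 2 were named, AT3G05155 and the chosen ERD6. At the background share 0.199 of 19 would be named, and the choice of ERD6 fixed 1 of the 2 beforehand. The peak on AT3G05155 lay at chromosome 3, 1448722 to 1448771, over 49 bp. It held 110 forward and 140 reverse reads, 250 in all, and had an FDR of 1.32%. This is also the FDR of RD29A, whose total of 140 equals the reverse count on AT3G05155. A peak on AT3G51120 had the same 250 reads with the same 110 forward and 140 reverse, at an FDR of 0.647%, so that the read columns alone do not fix the FDR. The genes on both sides of AT3G05155 in the order of the table include the ERD6-like AT3G05150, AT3G05160 and AT3G05165, and 0 of these was named. Reads from sequence that tandem copies share can be placed on any copy, and the handling of such reads is unknown, so that the assignment to AT3G05155 or to ERD6 within its own cluster is uncertain. Whether the copies share the sequence under the peak was not analysed here. No further list gene lay within 3000 bp in the neighbour columns, which are incomplete and could hardly show one. A gene counts here when the overlap column names it, so a peak in a promoter that names no gene would be missed.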

How the data were processed

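HA-tagged ATAF1 and untagged wild-type Col-0 rosettes gave 1 ChIP-seq library each. The authors deposited 1 peak list, on TAIR 9 per the submitters' processing notes. The sources used here do not name its aligner or peak caller, or say how the wild-type library was used. Reads per peak and per strand are counts per the file headers, uncorrected for length or depth, and both strands add up to the total in each of 439 peaks. FDR was deposited as a percent (highest 4.99). Strand imbalance was deposited as a fraction, and 438 peaks matched a recomputed value within 1e-06. What the deposited p-value tests is unknown.

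Annotation text over several lines was joined (177 continuation lines). Names in the overlap column were looked up by locus, symbol or synonym, chromosome by chromosome, in a RefSeq table of TAIR10.1 that served for names and gene order only. Of 354 loci, 352 matched. For 5 symbols with several loci, the locus number had to fit between neighbouring peaks. Intervals are exact 95% ones, Poisson for reads and Clopper-Pearson for shares. Gaps run between the facing ends of regions. The members, the gene lists and the rule for named genes were chosen with earlier results of these data known. That rule names the 4 genes, list genes under or within 3000 bp of a peak, their nearest neighbours in position and in reads, and their closest relatives. List genes named for having no peak, AT3G51120 and the groups of equal FDR were chosen after their values were seen. Parsing and matching were tested on simulated data. Promoter motifs and protein identity, planned at the outset, were not analysed here, since no sequence was used. The software was Matplotlib 3.10.9, SciPy 1.17.1, NumPy 2.4.6 and Python 3.11.15.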

Additional observations from a re-analysis of the deposited data

How the results depend on the processing

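Of the 89 list genes, 5 were named by a peak, and 4 of these were chosen for having one. Of the other 85, 1 was named (1.18%, beside 1.05% of all nuclear protein-coding genes). The count of 5 stayed the same without peaks of a p-value above 0.05. It was also 5 with neighbours within 1000 or 3000 bp, which shows little, since the neighbour columns are incomplete and could hardly add genes. With peaks of an FDR under 1% it was 2, since the peaks on RD29A, ERD6 and AT3G05155 drop out. Both genes left, MKK2 and ALDH10A9, were chosen for having a peak, and no other list gene was named at this limit. The 2 thus cannot be set against the 0.492% of all protein-coding genes named there. By locus names alone the count was 1, since the list gives the other genes by symbol. In the 6 lists with a gene under a peak, each count was lower under at least 1 of these alternatives (9 of 30 counts in all), and the other 2 lists were at 0 throughout. The percent of peaks with no more reads than each gene was 23.7 for RD29A, 42.1 for ERD6, 46.0 for MKK2 and 93.6 for ALDH10A9. Among peaks on protein-coding genes it was 25.4, 44.0, 48.5 and 96.6. Among peaks with an FDR under 1%, which leaves fewer low peaks, it was 16.8 for MKK2 and 88.1 for ALDH10A9. The peaks on RD29A and ERD6 are not in that set themselves. Set against it, the percent was 0.885 for RD29A and 11.9 for ERD6, which follows in part from the filter. By reads per bp it was 56.0 for RD29A, 65.8 for ERD6, 45.0 for MKK2 and 85.3 for ALDH10A9, with the 3 regions of 0 bp left out. No paired analysis was possible because there was no second library of either genotype. With 1 library per genotype and unknown depth, no value carries an error between plants.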
